A study of Homo sapiens with 6 samples.

Results

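The genes described here are 34 components of homologous recombination, the Fanconi anaemia pathway, mismatch repair and the checkpoint kinases that govern them, taken as a named list and read in SW480 cells, a long-established line from a human carcinoma of the colon. Each gene was represented by the brightest Affymetrix probe set annotated to that gene alone, and 30 of the 34 could be read in this way. BRCA2, FANCA, FANCD2 and PMS2 were not analysed here. All 30 lay above the filter on dim probe sets and are among the 14199 genes tested. Knockdown cells carried a short hairpin RNA (shRNA) against gankyrin and control cells a non-targeting one, each for 4 days (n = 3 arrays per group, 6 ug of total RNA per array). The labels state no other treatment, do not say how many hairpin sequences were used, and do not say whether replicates were separate cultures, so p-values reflect variation among arrays that may be technical alone. NFIL3 is named as the target in 1 sentence of the design text, whereas every sample label names gankyrin, the product of PSMD10.

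Homologous recombination repairs broken DNA by copying an intact sister strand. Ends are recognised by the MRE11-RAD50-NBN complex, trimmed by nucleases such as EXO1, and loaded with a recombinase through BRCA1, BARD1 and PALB2. The Fanconi pathway acts on crosslinked DNA, where a core ubiquitin ligase modifies the FANCI-FANCD2 pair, and mismatch repair removes replication errors through MutS and MutL proteins. ATM and ATR with their effectors CHEK2 and CHEK1 couple such damage to the cell cycle. Many of these genes are transcribed most strongly around S phase, several under E2F factors, and loss of mismatch repair is a well known route to colon cancer.

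PSMD10 read 10.19, 10.23 and 10.15 in control and 6.58, 6.47 and 6.30 in knockdown cells on the log2 signal scale, a fall of -3.74 ± 0.08 (limma adjusted p = 6.81e-09). NFIL3 fell as well, at -0.26 ± 0.07 (limma adjusted p = 0.0281; 0.112 at most without single arrays). All 12 colon epithelial markers passed the filter in level, led by KRT18 (13.05 in control cells) and EPCAM (12.20). Of these, VIL1 rose and CDH1, KRT19 and KRT20 fell, also without each array in turn, and LGR5 rose with a call kept in 2 of the 6 fits that left out 1 array (largest limma adjusted p = 0.185). In level, the intestinal factor CDX2 (4.19 in control cells) and CDH17 (3.57) were near the filter limit of 3.60. Only 3 of 7 fibroblast, 4 of 6 leukocyte and 2 of 5 endothelial markers passed the filter, and none of these was called with all arrays. Without control replicate 3 the leukocyte marker ITGAM was higher by 0.46 (limma adjusted p = 0.0024). The defining markers PTPRC, COL3A1 and CDH5 lay below the limit. LYZ, listed as a leukocyte marker, was bright at 12.31 and 12.27 in the respective groups. Control replicate 3 stood apart from the other arrays. Its 5′ minus 3′ difference on the actin (ACTB) control probe sets was -1.82, against -0.53 to -0.43 on the others, and its GAPDH difference was -0.56, against 0.00 to 0.11. This difference is a measure of how far along the transcript the labelled RNA reached. Many results, but not all, are therefore given with and without that array, and its part in them beyond those values was not tested.

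**Figure D1:**
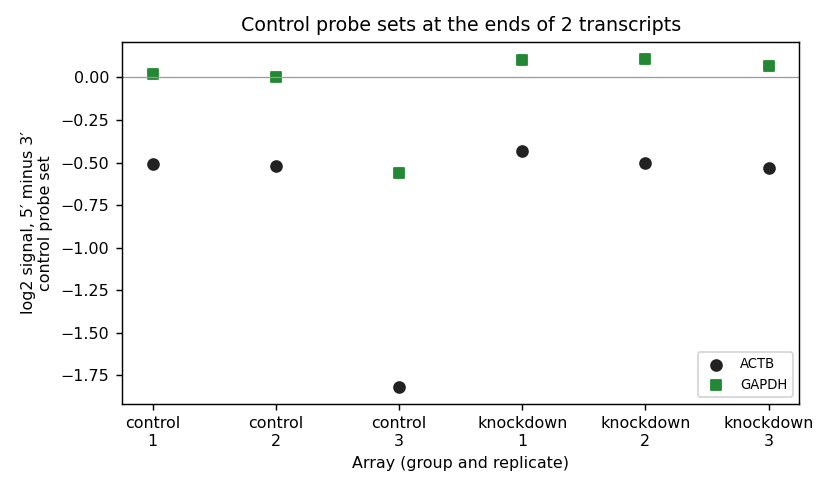
Difference in log2 signal between the 5′ and the 3′ control probe set of ACTB and GAPDH (vertical axis) on each of the 6 arrays (horizontal axis), 1 point per transcript and array. Control replicate 3 is the lowest array for both transcripts, at -1.82 and -0.56.

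Promoters of 4 of the genes are shown, 3 that rose after knockdown and 1 that did not pass the threshold, so that the sequence at their starts can be set beside the response. RefSeq promoters (GRCh38.p14, 250 bases before to 50 after a transcription start) were found for 31 of the 34 genes, with 44 starts in all. Capitals mark E2F words (TTTGGCGC, TTTCCCGC, TTTGCCGC or TTTCGCGC, either strand) and CCAAT boxes (CCAAT, or ATTGG on the opposite strand). EXO1, which rose, has an E2F word just after its start at chr1:241847954-241848253 on the plus strand. RAD51AP1 and CHEK1, which also rose, have 1 and 3 CCAAT boxes and no E2F word, at chr12:4538640-4538939 and chr11:125626106-125626405, both on the plus strand. MSH6, which did not pass the threshold, has an E2F word and a CCAAT box at chr2:47782895-47783194 on the plus strand. Of the starts of each gene the one with most words is shown: a further EXO1 start and 3 further MSH6 starts have neither word, and 2 further CHEK1 starts have 1 CCAAT box each.
EXO1: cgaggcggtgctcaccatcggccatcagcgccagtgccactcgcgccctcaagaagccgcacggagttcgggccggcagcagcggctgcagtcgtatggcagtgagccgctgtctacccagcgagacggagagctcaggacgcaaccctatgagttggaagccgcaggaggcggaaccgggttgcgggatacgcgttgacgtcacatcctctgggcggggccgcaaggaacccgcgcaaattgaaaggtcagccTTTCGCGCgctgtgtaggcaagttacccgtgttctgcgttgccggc
RAD51AP1: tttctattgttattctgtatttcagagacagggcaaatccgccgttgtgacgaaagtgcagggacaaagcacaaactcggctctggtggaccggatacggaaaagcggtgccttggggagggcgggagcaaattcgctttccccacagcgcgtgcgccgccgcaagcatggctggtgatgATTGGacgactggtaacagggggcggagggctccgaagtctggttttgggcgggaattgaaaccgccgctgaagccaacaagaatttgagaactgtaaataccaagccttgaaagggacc
CHEK1: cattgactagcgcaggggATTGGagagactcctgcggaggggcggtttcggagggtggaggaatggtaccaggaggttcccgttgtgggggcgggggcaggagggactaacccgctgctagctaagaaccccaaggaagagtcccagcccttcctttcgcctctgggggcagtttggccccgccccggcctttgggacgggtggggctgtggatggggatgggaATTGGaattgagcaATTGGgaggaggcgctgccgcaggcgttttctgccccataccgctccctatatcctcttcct
MSH6: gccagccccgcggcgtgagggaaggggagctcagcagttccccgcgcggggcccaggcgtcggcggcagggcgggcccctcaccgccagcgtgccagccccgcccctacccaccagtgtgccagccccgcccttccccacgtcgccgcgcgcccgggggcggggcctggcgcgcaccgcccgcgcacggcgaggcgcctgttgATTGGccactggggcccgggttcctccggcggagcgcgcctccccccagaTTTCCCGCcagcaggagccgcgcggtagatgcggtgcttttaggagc

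E2F words occurred in 8 of the 31 genes, or 25.8%, whereas 6.19% of all genes tested with a promoter sequence held one. Of the 8, FANCA, FANCD2 and PMS2 were not among the genes tested, so these shares cover unlike sets. Of the called genes with a promoter sequence 1 of 6 held an E2F word, and of the measured genes that were not called 4 of 21 did, namely FANCC, MSH6, UNG and XRCC2. CCAAT boxes were in 3 of the 6 called genes and 13 of the 21 others, beside 42.4% of all genes tested. The CHR word TTTGAA, typical of genes of late cell cycle, was in 0 of 6 and 4 of 21, beside 14.1%. FANCI, NBN and RAD54B had no match among the promoter sequences.

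Of the 30 measured genes 8 rose and 0 fell after gankyrin knockdown (limma, Benjamini-Hochberg adjusted p under 0.05 over all genes). Over all genes tested 8.13% rose and 14.3% fell, beside 26.7% and 0 of the repair genes. The 8 were RAD51AP1, EXO1, CHEK1, FANCI, NBN, FANCG, BRCA1 and RAD51C, none of which changed by more than 1.54-fold. An unadjusted p under 0.05 was reached by 13 of the 30. The share of all genes at that cutoff was not counted, and 3189 of the 14199 genes passed even the stricter adjusted threshold. The median log2 fold change was 0.14 over the 30 genes and -0.02 over all genes. In bulk RNA, a change in the number of cells that express a gene and a change in its RNA per cell cannot be told apart. Without control replicate 3 the counts were 13 rises and 1 fall, beside 12.7% and 16.6% of all genes; the 8 were among the 13, joined by FANCC, BRIP1, MRE11, BLM and UNG, and the fall was ATM. Knockdown and control values lay wholly apart for 12 genes that were higher and 3 that were lower (PALB2, FANCE and RAD50), beside 15.7% and 24.6% of all genes.

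Scaling also bears on the counts. Centring each array on its median over all probe sets left 5 rises, and centring on its median over the genes tested (chosen after seeing the data), which shifted the median change of all genes by 0.10, gave 14. Over all 14199 genes 1154 rose as deposited, 894 with the first centring and 2274 with the second. The split of calls over all genes moved with scaling too, from 36.2% higher as deposited to 32.1% and 60.7%. RAD51AP1, EXO1, CHEK1, FANCI and NBN passed as higher under every one of the 16 alternatives run, and BRCA1, FANCG and RAD51C did not. Some alternatives left these values as they were. RAD51AP1 and EXO1 have 1 probe set each past the filter, so averaging could not change them. Avoiding probe sets ending in _x_at or _s_at left all 5 genes on the same probe set.

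**Figure D2:**
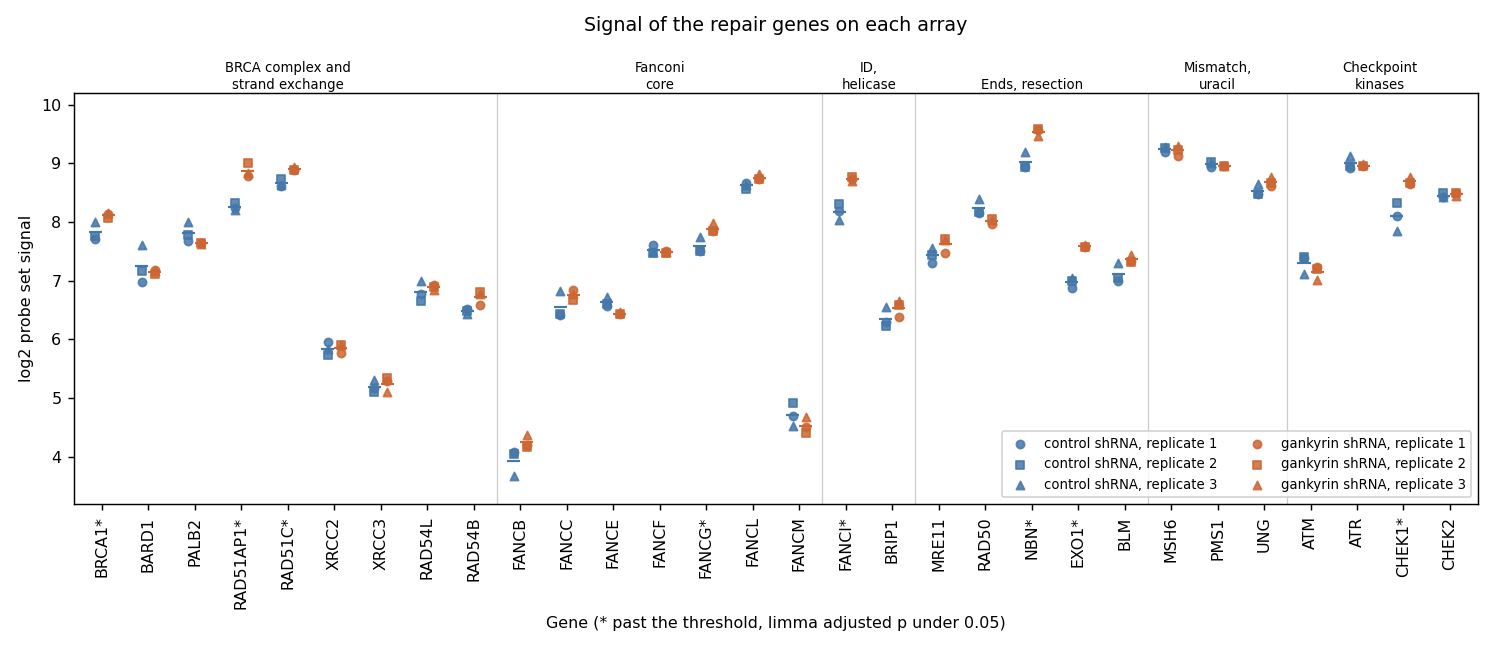
Log2 probe set signal (vertical axis) of the 30 repair genes (horizontal axis, grouped by role) on each array; blue is control and orange gankyrin shRNA, marker shapes give the replicate and short lines the group means. Asterisks mark the 8 genes past the threshold, such as EXO1, whose knockdown values of 7.58 to 7.61 all lie above the control values of 6.87 to 7.04.

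Strand exchange genes were led by RAD51AP1, a DNA-binding partner that stimulates the recombinase. In order of replicate, RAD51AP1 read 8.23, 8.32 and 8.20 in control cells and 8.78, 9.00 and 8.83 in knockdown cells. Every knockdown value was above every control value, and the rise was 1.54-fold (log2 fold change 0.62 ± 0.08 SE, limma adjusted p = 0.000503). Leaving out any array kept the call, with a largest adjusted p of 0.00456. RAD51C, a paralog of the recombinase in the complexes that help to build the recombinase filament, read 8.62, 8.74 and 8.63 in control and 8.89, 8.89 and 8.94 in knockdown cells. Its groups did not overlap and its rise was small, at 0.24 ± 0.06 (limma adjusted p = 0.0201). That call was lost without control replicate 1 or without any 1 of the knockdown replicates, at a largest adjusted p of 0.0923.

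BRCA1, the ubiquitin ligase and scaffold of end resection and filament loading, read 7.71, 7.77 and 8.00 in control and 8.13, 8.06 and 8.16 in knockdown cells. Knockdown values were all higher, and control replicate 3 was the control nearest to them. BRCA1 rose by 0.29 ± 0.09 (limma adjusted p = 0.0375), and by 0.38 ± 0.06 without control replicate 3 (limma adjusted p = 0.000297). Leaving out any other array lost the call, with a largest adjusted p of 0.136. Its partner BARD1 read 6.98, 7.17 and 7.60 in control and 7.18, 7.11 and 7.17 in knockdown cells. The BARD1 groups overlapped, its difference was -0.10 ± 0.14 with all arrays and 0.08 ± 0.08 without control replicate 3, and neither passed (limma adjusted p = 0.663 and 0.496).

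PALB2, which joins BRCA1 to BRCA2, was lower on all knockdown arrays, at 7.65, 7.64 and 7.62 against 7.67, 7.78 and 8.00. PALB2 did not pass with all arrays (-0.18 ± 0.09, limma adjusted p = 0.186) or without control replicate 3 (-0.09 ± 0.06, limma adjusted p = 0.353). RAD54B, a motor protein of the SWI/SNF family, was higher on every knockdown array but did not pass either (0.24 ± 0.09, limma adjusted p = 0.0785). Its relative RAD54L was at 0.09 ± 0.10. The paralogs XRCC2 and XRCC3 were dim, with control means of 5.84 and 5.19, and differed by 0.01 ± 0.10 and 0.05 ± 0.10. In this group of 9 measured genes 3 rose and 0 fell, with a median of 0.09.

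Among the 7 measured subunits of the Fanconi core complex 1 rose. FANCG, a scaffold subunit, read 7.50, 7.50 and 7.75 in control and 7.84, 7.84 and 7.98 in knockdown cells. These groups did not overlap and the rise was 0.30 ± 0.09 (limma adjusted p = 0.0354), or 0.39 ± 0.07 without control replicate 3. The FANCG call was lost when any other array was left out, with a largest limma adjusted p of 0.148. FANCC read 6.41, 6.44 and 6.82 in control and 6.84, 6.67 and 6.78 in knockdown cells. Control replicate 3 was the high control here: the difference was 0.21 ± 0.12 with it (limma adjusted p = 0.242) and 0.34 ± 0.08 without it (limma adjusted p = 0.00428).

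FANCB, an X-linked subunit, was the dimmest of the 30 repair genes, at 4.08, 4.05 and 3.67 in control and 4.20, 4.16 and 4.38 in knockdown cells. It did not pass (0.31 ± 0.13, limma adjusted p = 0.112), and its difference was 0.18 ± 0.12 without control replicate 3. FANCL, the ubiquitin ligase subunit, was at 0.13 ± 0.06 and FANCF, an adaptor, at -0.04 ± 0.07. FANCE, which bridges the core to its substrate, was lower on every knockdown array at -0.19 ± 0.08 (limma adjusted p = 0.121). FANCM, the DNA translocase that anchors the core, was at -0.19 ± 0.12 from a control mean of 4.72.

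FANCI, 1 member of the pair that the core ligase modifies, read 8.19, 8.30 and 8.03 in control and 8.73, 8.77 and 8.70 in knockdown cells. Its knockdown values were close together and all above control, a 1.47-fold rise (0.56 ± 0.08, limma adjusted p = 0.00108), or 0.49 ± 0.06 without control replicate 3. The call held without each array in turn, with a largest adjusted p of 0.0101. BRIP1, the BRCA1-bound helicase also called FANCJ, was at 0.19 ± 0.11 (limma adjusted p = 0.273) with overlapping groups, and at 0.28 ± 0.09 without control replicate 3 (limma adjusted p = 0.0263).

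The 3 subunits of the end-sensing complex gave different values. NBN, the subunit that recruits ATM, read 8.94, 8.93 and 9.20 in control and 9.57, 9.58 and 9.47 in knockdown cells. It rose 1.43-fold with no overlap (0.52 ± 0.08, limma adjusted p = 0.00175), or by 0.61 ± 0.05 without control replicate 3. MRE11, the nuclease, read 7.30, 7.44 and 7.55 in control and 7.48, 7.71 and 7.70 in knockdown cells, overlapped, and did not pass (0.20 ± 0.09, limma adjusted p = 0.161; 0.0228 without control replicate 3).

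RAD50, the ATPase that holds the ends together, read 8.16, 8.17 and 8.39 in control and 7.97, 8.05 and 8.04 in knockdown cells. It was lower on every knockdown array and just missed the threshold (-0.22 ± 0.08, limma adjusted p = 0.0748; 0.0841 without control replicate 3). The difference between the changes of NBN and RAD50 was not tested.

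EXO1, the exonuclease that lengthens resected ends and also excises mismatched strands, read 6.87, 7.00 and 7.04 in control and 7.58, 7.58 and 7.61 in knockdown cells. Its groups were far apart for their spread, with a 1.54-fold rise (0.62 ± 0.08, limma adjusted p = 0.000583) that held without each array in turn (largest adjusted p = 0.00654). BLM, the helicase that works with EXO1 in resection and later dissolves joined strands, read 6.99, 7.05 and 7.30 in control and 7.34, 7.32 and 7.44 in knockdown cells. BLM missed the threshold narrowly with all arrays (0.25 ± 0.10, limma adjusted p = 0.0844) and passed without control replicate 3 (0.35 ± 0.07, limma adjusted p = 0.00157).

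None of the 3 measured mismatch repair and uracil excision genes was called by limma with all arrays, and 0 had an unadjusted p under 0.05. MSH6, the partner in the MutS complex that reads single mispairs, was among the brightest at 9.19, 9.26 and 9.28 in control and 9.13, 9.23 and 9.30 in knockdown cells. Those values overlap, with a difference of -0.02 ± 0.06 (limma adjusted p = 0.833). PMS1, a MutL protein, was at -0.03 ± 0.06 from a control mean of 8.99. UNG, the glycosylase that removes uracil from DNA, was at 0.15 ± 0.07 (limma adjusted p = 0.161) and passed without control replicate 3 (0.21 ± 0.06, limma adjusted p = 0.0140).

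CHEK1, the kinase that ATR activates at stalled forks, was the checkpoint gene that rose. CHEK1 read 8.11, 8.33 and 7.85 in control and 8.65, 8.67 and 8.76 in knockdown cells. All knockdown values were higher, and control replicate 3 was the lowest of the 6 arrays. The rise was 0.60 ± 0.11 (limma adjusted p = 0.00392) with all arrays and 0.47 ± 0.07 without control replicate 3 (limma adjusted p = 9.09e-05). The other 3 kinases stayed under the threshold: ATR was at -0.04 ± 0.07, CHEK2 at 0.03 ± 0.06 and ATM at -0.15 ± 0.10. ATM read 7.39, 7.40 and 7.11 in control and 7.24, 7.20 and 7.02 in knockdown cells, and without control replicate 3, the lowest control, it fell by 0.24 ± 0.08 (limma adjusted p = 0.0270). Its 3 dimmer probe sets were at -0.12, -0.11 and 0.08 without that array and at -0.12, 0.11 and 0.14 with it, and none of them passed.

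**Figure D3:**
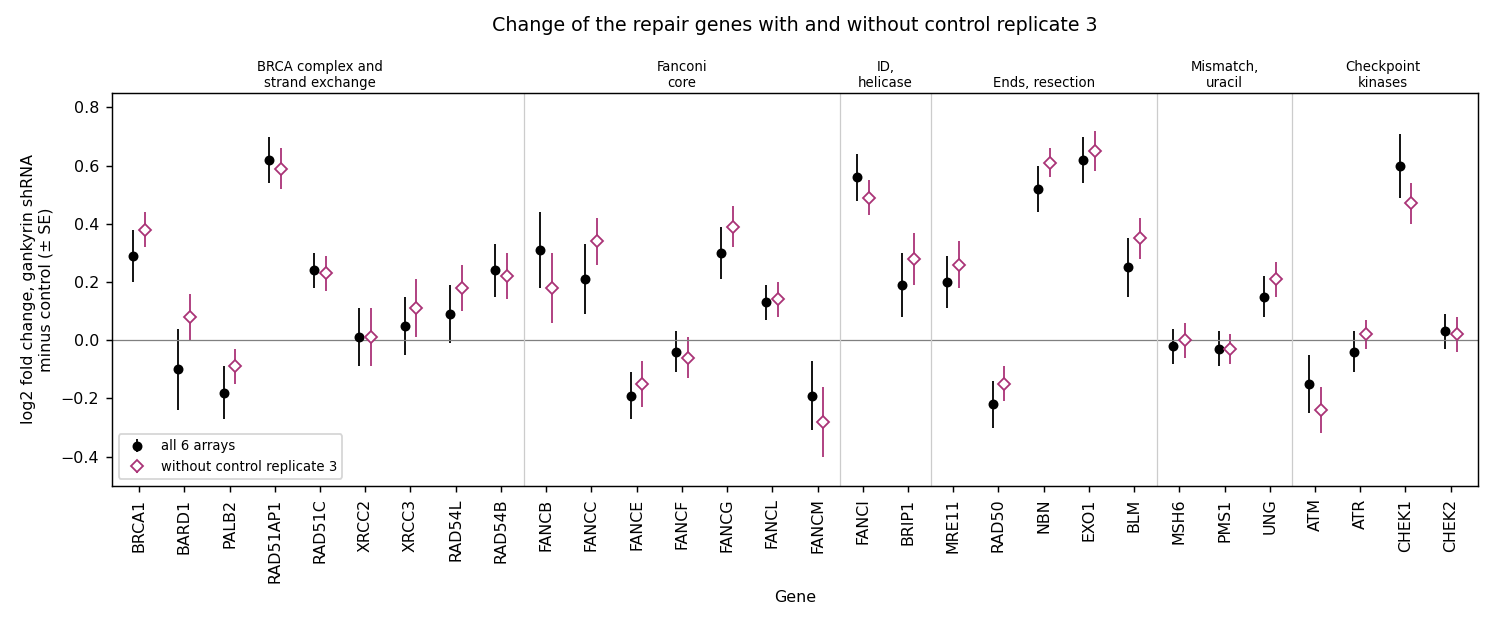
Log2 fold change, gankyrin shRNA minus control, with its standard error (vertical axis) for the 30 repair genes (horizontal axis) with all 6 arrays (black circles) and without control replicate 3 (open diamonds). Leaving that array out moves BRCA1 from 0.29 to 0.38 and CHEK1 from 0.60 to 0.47, and takes BARD1 from -0.10 to 0.08.

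Further probe sets gave a second reading for 16 of the 30 genes, 56 probe sets in all past the filter. In a fit over every probe set of 1 gene, where 4.66% rose and 7.12% fell, 13 of the 56 rose and 1 fell (limma adjusted p under 0.05). All 4 NBN probe sets rose, by 0.52, 0.76, 0.91 and 0.86, so the brightest gave the smallest change. RAD50 was negative on all 3 of its probe sets with all arrays, at -0.22, -0.03 and -0.47. The last of these, the dimmest, was the 1 that fell (limma adjusted p = 0.0291). Without control replicate 3 they were at -0.15, 0.02 and -0.44, and the last again passed (limma adjusted p = 0.0081). MRE11 was at 0.34 on its dimmer probe set, which did not pass. FANCB rose by 0.43 on a dimmer probe set (limma adjusted p = 0.0420), a call lost without control replicate 3 (0.0581).

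FANCI had 3 probe sets, of which the 2 brightest rose by 0.56 and 0.52. Its dimmest read 7.43, 7.33 and 5.27 in control and 7.97, 8.00 and 7.91 in knockdown cells. Control replicate 3 was far below the rest, and the difference of 1.28 ± 0.52 did not pass (limma adjusted p = 0.155), and without that array the difference was 0.58 (limma adjusted p = 2.58e-05). CHEK1 rose on 3 of 4 probe sets, by 0.60, 0.68 and 0.34, while its dimmest was at -0.37 and did not pass. Without control replicate 3 the respective values were 0.47, 0.47, 0.36 and -0.28.

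BRCA1 was at 0.54 on its dimmer probe set, where control replicate 3 lay 0.88 below the mean of the other controls, and at 0.24 there without that array (limma adjusted p = 0.0842). In this larger fit the brighter BRCA1 probe set did not pass (limma adjusted p = 0.0812), nor did that of FANCG (0.0780). RAD51C was at 0.45 on its dimmer probe set (limma adjusted p = 0.0934), and at 0.29 without control replicate 3 (limma adjusted p = 0.0176). MSH6 was at 0.30 on its dimmer probe set with all arrays and at -0.05 without control replicate 3, which read 7.66 there against 8.64 and 8.78. Of the 56 probe sets, 5 read more than 0.5 lower and 2 more than 0.5 higher on control replicate 3 than on the mean of the other controls.

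**Figure D4:**
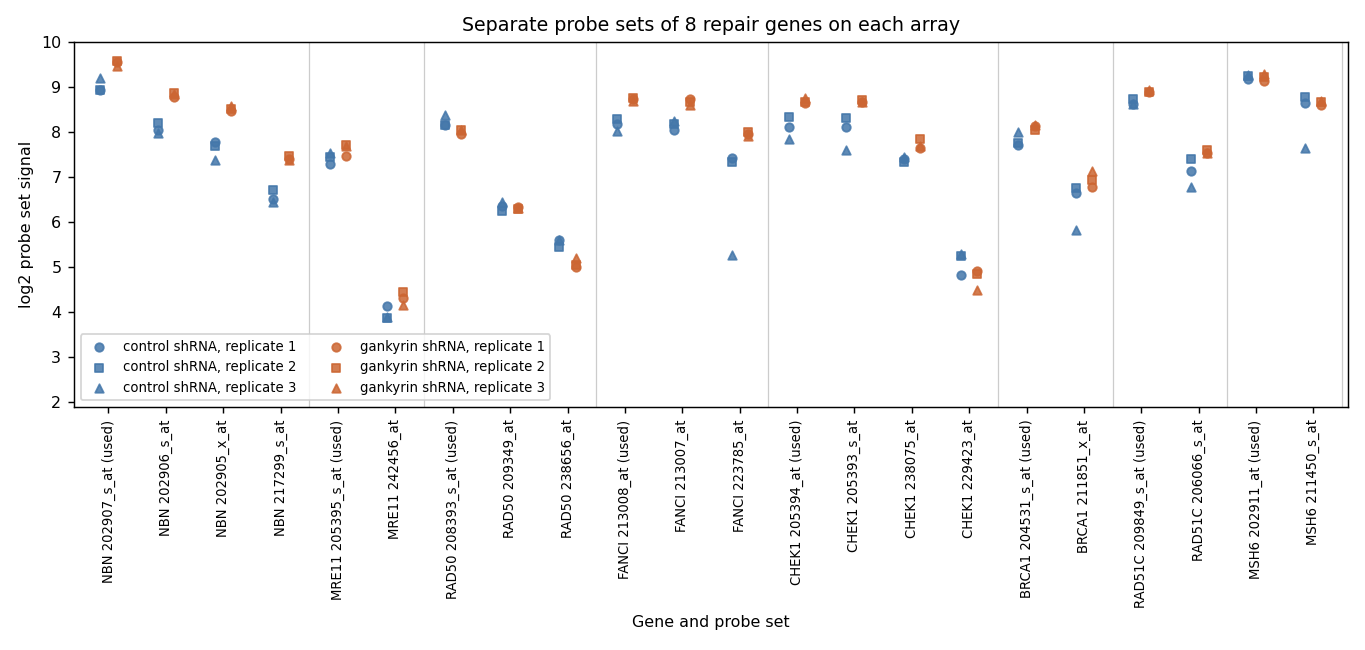
Log2 signal (vertical axis) of each probe set past the filter for 8 repair genes (horizontal axis, brightest first and marked as used) on each array; blue is control, orange gankyrin shRNA, and marker shapes give the replicate. The 4 NBN probe sets separate the groups, while control replicate 3 lies alone on a FANCI probe set (5.27), a BRCA1 probe set (5.83) and an MSH6 probe set (7.66).

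Other genes of the same pathways were read from lists that hold none of the genes above. Of 77 listed genes 68 were measured, and 7 rose and 7 fell, with a median of -0.03 (11 and 10 without control replicate 3). That is 10.3% in each direction, beside 8.13% higher and 14.3% lower over all genes. Centring moved these counts to 3 rises and 6 falls over all probe sets, and to 18 and 3 over the genes tested. Over all 14199 genes the respective centrings gave 894 rises and 1890 falls, and 2274 rises and 1470 falls. In recombination and crosslink repair 2 of 26 rose and 4 fell. USP1, which removes ubiquitin from the FANCI-FANCD2 pair, rose by 0.22 ± 0.05 (limma adjusted p = 0.00764). Both subunits of the crosslink-cutting nuclease, ERCC1 and ERCC4, fell, at -0.32 ± 0.08 and -0.50 ± 0.12, as did the helicase WRN at -0.40 ± 0.10. RAD51D, a further paralog of the recombinase, rose by 0.29 ± 0.08, a call kept in 1 of the 6 fits that each left out 1 array (largest limma adjusted p = 0.133). FAAP24 fell, at -0.40 ± 0.12, and was called in 3 of those 6 fits (largest limma adjusted p = 0.125). USP1 was called in 6 of them, and ERCC1, ERCC4 and WRN in 4 each.

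In mismatch and base excision repair 0 of 15 rose and 1 fell in limma, and without control replicate 3 the counts were 3 and 2. An unadjusted p under 0.05 was reached by 4 of the 15. The share of all genes at that cutoff was not counted, and 3189 of 14199 passed even the stricter adjusted threshold. The fall was the gap-filling polymerase POLB, from 8.62 ± 0.02 to 8.26 ± 0.02 (SD, n = 3 each; -0.36 ± 0.06, limma adjusted p = 0.00251). SMUG1 was at 0.38 ± 0.13, MSH3 at 0.24 ± 0.10 and PARP1 at 0.13 ± 0.05, none past the threshold with all arrays. Without control replicate 3 SMUG1 was at 0.21 and passed (limma adjusted p = 0.0402), and MSH3 was at 0.15 and did not. Damage signalling had 4 rises and 1 fall among 20. The replication fork protection pair TIMELESS and TIPIN rose by 0.48 ± 0.09 and 0.27 ± 0.08, the checkpoint clamp subunit HUS1 by 0.31 ± 0.07 and the BRCA1-A complex subunit BABAM1 by 0.26 ± 0.07, and the histone H2AX fell, at -0.24 ± 0.07. Of the 6 fits that each left out 1 array, TIMELESS was called in 6, HUS1 in 4, BABAM1 and H2AX in 2 and TIPIN in 1, and the largest limma adjusted p of TIPIN was 0.149. Without control replicate 3 this list held 4 rises and 2 falls. Of 7 end joining genes XRCC6 (Ku70) rose by 0.15 ± 0.04 and XRCC4, which holds the ligase, fell, at -0.36 ± 0.09. XRCC5 (Ku80) and DCLRE1C, the Artemis nuclease, were at 0.15 ± 0.05 and -0.24 ± 0.08 and did not pass. Without control replicate 3 the end joining list held 2 rises and 2 falls, since DCLRE1C (-0.26, limma adjusted p = 0.0228) and the kinase PRKDC (0.31, limma adjusted p = 0.000126) then passed. XRCC6 was called in 1 and XRCC4 in 3 of the 6 fits that each left out 1 array, with largest limma adjusted p of 0.0953 and 0.0887.

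Cell cycle lists were read on the same arrays, where 8.13% of all genes rose and 14.3% fell (12.7% and 16.6% without control replicate 3). Of 16 S phase genes 6 rose and 1 fell, with a median of 0.23 (8 and 1 without control replicate 3), led by CDC45 at 1.04 ± 0.08, GINS2 at 0.54 ± 0.08, RRM2 at 0.34 ± 0.05 and MCM4 at 0.42 ± 0.07. Cyclin E1 (CCNE1), which drives entry into S phase, fell, at -0.44 ± 0.10, and was called in 5 of the 6 fits that left out 1 array. Of 14 mitotic genes 1 rose and 2 fell, with a median of 0.03: CCNB2 rose by 0.27 ± 0.05, and CDC20 and AURKA fell, at -0.28 ± 0.07 and -0.36 ± 0.10, while TOP2A was at 0.17 ± 0.06 and did not pass. Of the 6 fits that left out 1 array, CCNB2 was called in 6, CDC20 in 4 and AURKA in 2. The part of cell cycle distribution in the changes of the repair genes was not tested.

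**Figure D5:**
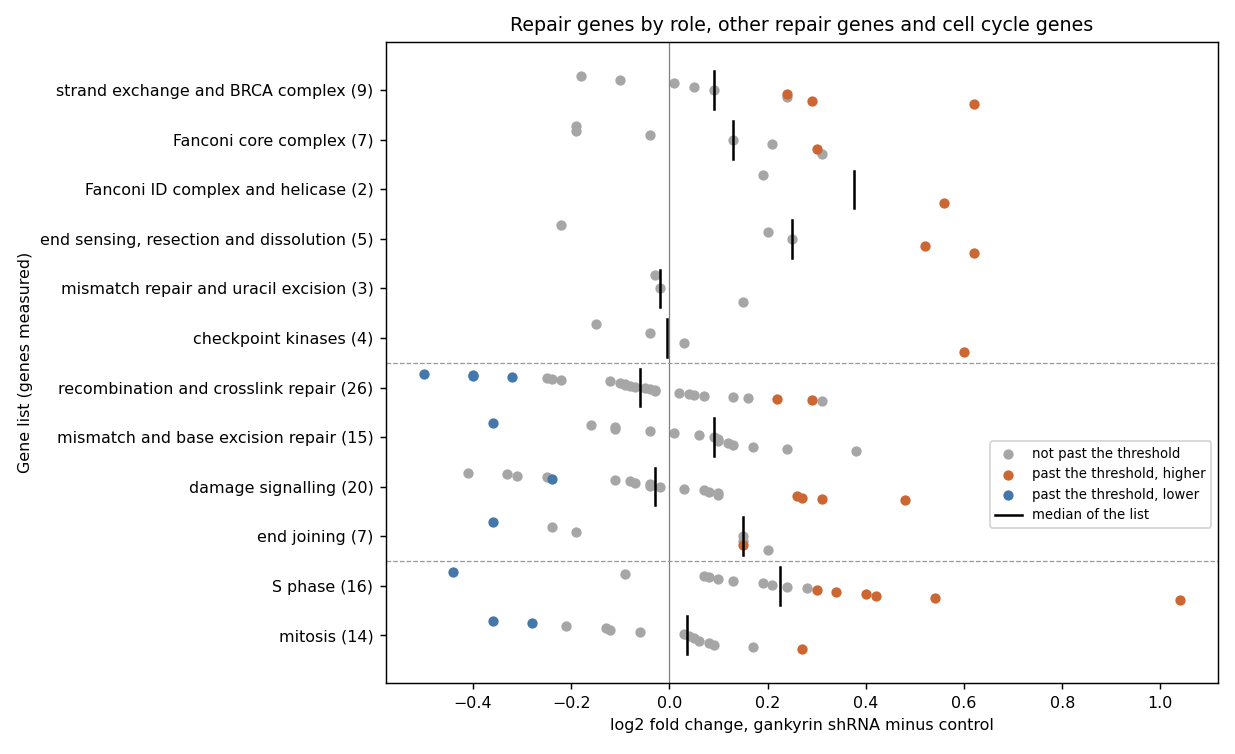
Log2 fold change, gankyrin shRNA minus control (horizontal axis), of each measured gene in the 6 role groups of the repair genes, 4 lists of other repair genes and 2 cell cycle lists (vertical axis, genes measured in parentheses); orange and blue points passed the threshold as higher and lower, grey points did not, and black bars are list medians. The 8 coloured points of the upper 6 groups are all orange. Recombination and crosslink repair genes have 2 orange and 4 blue points among 26, near the 8.13% higher and 14.3% lower over all genes.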

How the data were processed

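RNA of 6 SW480 samples was read on 1-colour Affymetrix U133 Plus arrays. The authors deposited 1 value per probe set and array on a log2 scale, as inferred from a range of 1.29 to 13.68. MAS5 is the tool named in the submitters' processing notes; its role, the summary method and the scaling are unknown here. Array medians lay between 4.20 and 4.25, and the values were used as deposited. Probe sets were named from the platform annotation, updated through Entrez identifiers to RefSeq symbols (GRCh38.p14): 41091 had 1 gene, 1801 several and 11721 are unnamed here. Control probe sets and the lowest 40% by mean were left out (limit 3.60), and each gene kept its brightest single-gene probe set. Knockdown was set against control with limma 3.58.1 (R 4.3.3; moderated variances that follow the signal level). Its two-sided p-values were adjusted by Benjamini-Hochberg over 14199 genes, and "rose" and "fell" mean an adjusted p under 0.05. The smallest p of an exact permutation test of 1 gene here is 0.1. The fit was tested on simulated data with 50 genes changed at each size. It recovered 6 of 50 at a log2 change of 0.3, 24 at 0.5, 44 at 1 and 50 at 2. Genes that were not called may therefore have changed by such small amounts. The simulation gave 125 calls against 3189 in the data, so the rates may differ between them. The number of arrays limits the precision. Members, lists and tests were chosen with earlier results of these data known. All members are named, and up to 4 genes of smallest p from each other list; RAD51D, FAAP24, H2AX, CCNE1, PRKDC and the markers named were added after their values were seen. Alternatives covered filters, scaling, probe set choice, the variance prior, a replicate block and each array left out. A further control transcript is not reported here.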

Additional observations from a re-analysis of the deposited data

How the results depend on the processing

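The 8 rises among the repair genes became 5 with arrays centred on their median over all probe sets, 14 with centring on the median over the genes tested (chosen after seeing the data), and 5 to 13 as single arrays were left out; falls numbered 0 to 1. The repair genes' median of 0.14 became 0.24 under that last centring. Calls over all genes, 3189 with all arrays, ranged from 1732 to 4161 without single arrays. Rises over all genes numbered 1154 with all arrays as deposited, 894 and 2274 under the respective centrings, and 613 to 1808 without single arrays. The other pathway genes' 7 rises became 3 and 18 under the respective centrings and 2 to 11 without single arrays; their 7 falls became 3 under the later centring and 2 to 10 without single arrays. Signs turned, without passing in either setting, for MSH6 (0.14), ATR (0.03), FANCF (0.01) and PMS1 (0.02) with probe sets averaged, ATR (0.10) with _x_at and _s_at probe sets avoided, and FANCF (0.06), MSH6 (0.08), PMS1 (0.07), ATR (0.06) and BARD1 (0.00 after rounding) under the later centring. As single arrays were left out, signs also turned within the ranges of BARD1 (-0.23 to 0.08), ATR (-0.09 to 0.02), MSH6 (-0.06 to 0.02), FANCF (-0.06 to 0.01) and XRCC2 (-0.04 to 0.07). The cause was not tested. Replicate numbers are shared by the groups, but deviations of same-numbered arrays correlated at 0.0198, 0.108 and -0.00551, so they were not taken as pairs; with the replicate block 8 repair genes rose, 0 fell and 3049 genes were called. Filters, the robust prior, quantile normalization and probe set choices gave 8 to 10 rises, and a fit with no intensity trend 6. The number of arrays limits which small changes can be called.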
